A study of Mus musculus with 12 samples.

Results

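miR-21a is a microRNA (miRNA) of many somatic cell types, and its 2 arms, mmu-miR-21a-5p and mmu-miR-21a-3p (written below without the species prefix), were followed across mouse embryonic stem cells (ESC) and spermatids. Both were taken by name from a table of raw read counts, as 2 of its 1549 features. They were chosen by their measured abundance, since miR-21a is among the most abundant miRNAs of the diploid ESC and of the spermatids in these data. Its levels in comparisons with those groups are therefore given as descriptions, without a test, and so is its arm ratio in haploid ESC against either of them. Tests were made only between the haploid lines, and for the arm ratio of diploid ESC against spermatids, which the choice did not use.

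The 12 libraries fell into 5 groups, all labelled wild type and all collected by cell sorting. Androgenetic haploid ESC, which carry a single chromosome set of paternal origin, came from 3 lines, with 2 libraries of A129-2, 3 of A129-6 and 2 of A129-17, and were grown in medium with LIF and the kinase inhibitors PD0325901 and CHIR99021. The diploid ESC line R1 had 2 libraries, and its culture was not described apart from that of the haploid lines. Spermatids (RS) had 3 libraries and were sorted after Hoechst staining from testes of 129Sv males. R1 was the only diploid line, so a difference from R1 cannot be told apart from a difference between lines. The labels call the samples independent replicates, but separate cultures or animals were not named, so every SD, standard error and p-value reflects how these samples vary, which may be technical variation alone. The ESC libraries held 3709786 to 9176080 counts and the spermatid libraries 155232 to 243714. Listed markers of pluripotent and of male germ cells separated the ESC libraries from the spermatid libraries. Summed miRNAs of pluripotent cells reached 77325 to 140318 counts per 1000000 counts of a library (CPM) in haploid libraries and 193849 to 194256 in R1. In RS replicates 1, 2 and 3 they reached 57.4, 2577 and 138 CPM. Summed male germ cell miRNAs reached 311 to 1893 CPM in haploid libraries, 1024 to 1069 in R1 and 262783 to 353394 in RS.

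A miRNA hairpin is cut out of a longer transcript by Drosha and trimmed to a duplex by Dicer. An Argonaute protein then usually keeps a single strand of that duplex, the guide, and the other strand, the passenger, is mostly degraded. In mouse the guide of miR-21a is the 5p arm. miR-21 is induced by STAT3 and AP-1, is abundant in fibroblasts, macrophages and many tumours, and represses Pdcd4, an inhibitor of translation initiation. STAT3 is also the factor through which LIF acts in mouse ESC.

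The mature arms are shown because a single precursor gives both, with different seeds and base composition. The seed, bases 2 to 8 and the part that pairs with targets, is in capitals, and the sequences are those of RefSeq (GRCm38.p6), 5′ to 3′.
miR-21a-5p: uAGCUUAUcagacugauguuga
miR-21a-3p: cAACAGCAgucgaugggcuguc
The Mir21a hairpin of 92 bases lies on the minus strand of chromosome 11 at 86584067 to 86584158. The 5p arm occupies its bases 18 to 39 (genome positions 86584120 to 86584141) and the 3p arm its bases 56 to 77 (86584082 to 86584103). In the GENCODE annotation of GRCm38 the hairpin falls within the last exon of Vmp1 (86583865 to 86585451), in the part annotated as untranslated, on the same strand. Vmp1 encodes a membrane protein needed for autophagosome formation. The 5p arm is 36.4% G and C and the 3p arm 59.1%.

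Mouse has further loci with related mature sequences, shown because short reads from them could resemble those of the 5p arm.
miR-21b: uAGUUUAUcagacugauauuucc
miR-21c: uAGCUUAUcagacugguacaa
Positions are counted from 1 at the 5′ end, with the base of miR-21a-5p first. miR-21c, from chromosome 8, has the seed of miR-21a-5p and the same first 15 bases, and then differs by A16G, G18A, U19C, U20A and G21A. miR-21b, from chromosome 3, differs within the seed by C4U and later by G18A, G21U and A22C. Neither these nor miR-590-5p and miR-590-3p, which had been listed with them, were among the 1549 features under those names. Within the set of RefSeq mature sequences used, miR-21c was the only other with the seed of the 5p arm, and none shared the seed of the 3p arm. That set was incomplete, with sequences for 1158 features against 1366 with a mouse miRBase name. Seeds of miRNAs outside the set were not compared. The sources used here do not say how the authors assigned reads with several matches.

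miR-21a-5p was lower in every haploid library than in any library of R1 or spermatids. Relative to all counted reads, its level was 6923 and 4843 CPM in A129-2 replicates 1 and 2. The A129-6 libraries had 5564, 5193 and 3721 CPM, and those of A129-17 had 4495 and 4907 CPM. The 7 haploid libraries thus spanned 3721 to 6923 CPM, with a median of 4907. R1 had 54834 and 53611 CPM, which made miR-21a-5p 5.48% and 5.36% of all its counts. Spermatids had 126850, 48128 and 86793 CPM, or 12.7%, 4.81% and 8.68% of counts. In these bulk samples, fewer cells with the miRNA and less of it per cell cannot be told apart. All haploid libraries lay below all libraries of R1 and RS, and the 2 R1 libraries lay within the range of the 3 spermatid libraries.

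**Figure D1:**
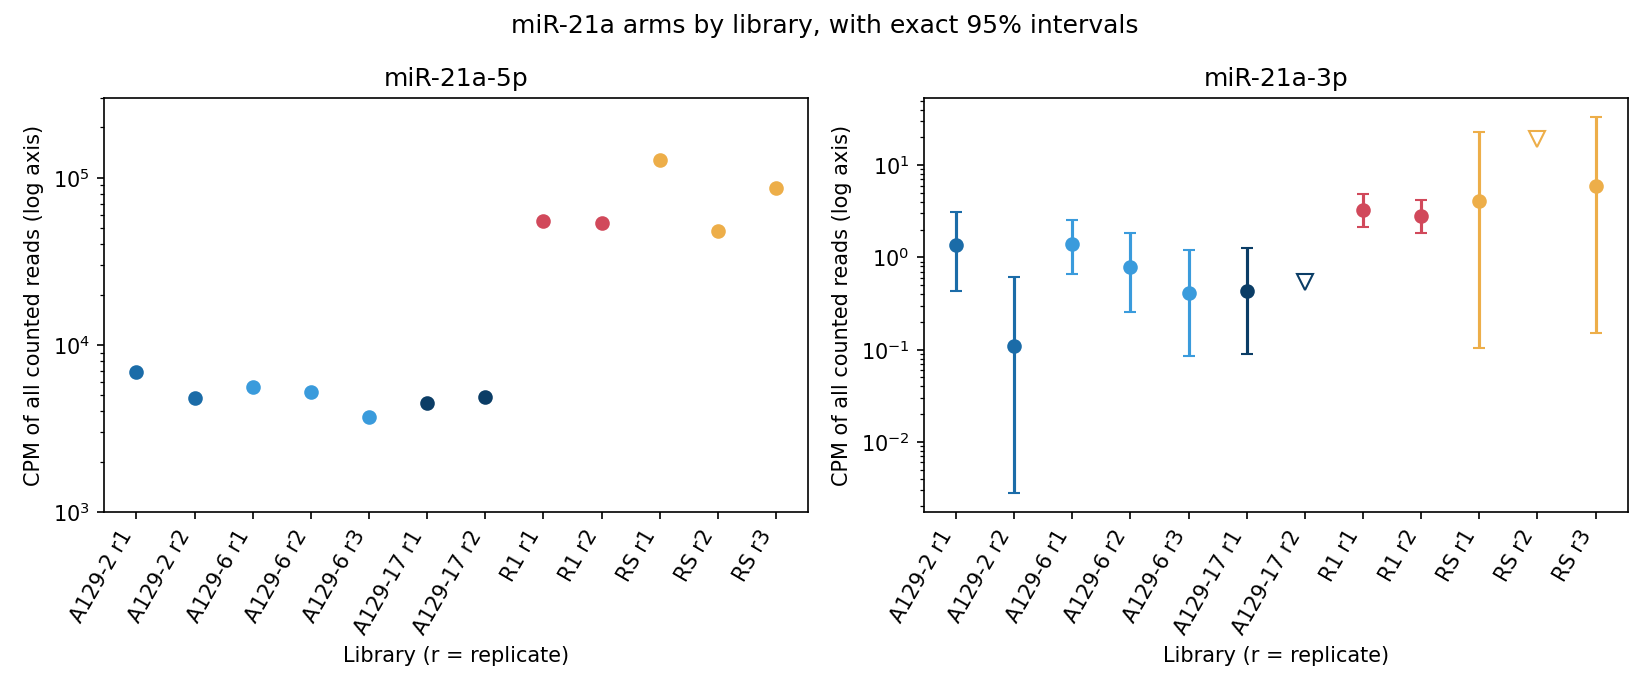
CPM of miR-21a-5p (left) and miR-21a-3p (right) in each of the 12 libraries, on log axes, with exact 95% counting intervals (smaller than the points for the 5p arm). Open triangles mark the limit that a count of 0 allows, 0.535 CPM in A129-17 replicate 2 and 19.3 CPM in RS replicate 2. The 5p arm stands at 3721 to 6923 CPM in haploid libraries and at 48128 to 126850 CPM in R1 and RS libraries.

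Counting error was small beside the spread between libraries for the 5p arm. The widest exact (Clopper-Pearson) 95% interval in relative terms was that of RS replicate 2, 47068 to 49204 CPM. Intervals and limits cover counting error only, since PCR copies without molecular identifiers are not independent molecules. The mean of A129-2 was 5883 ± 1470 CPM (SD, n = 2), that of A129-6 was 4826 ± 974 (SD, n = 3) and that of A129-17 was 4701 ± 292 (SD, n = 2). The R1 libraries averaged 54222 ± 865 CPM (SD, n = 2) and the RS libraries 87257 ± 39363 CPM (SD, n = 3). From low to high the order was A129-17, A129-6, A129-2, R1 and RS, in which the 3 haploid lines overlapped one another and R1 and RS did so too.

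In rank, miR-21a-5p was between the 18th and the 27th most abundant feature of the haploid libraries, 4th or 5th in R1 and between 2nd and 4th in spermatids. By group means it stood 4th in R1, next below miR-293-3p (97903 CPM), a miRNA of the pluripotency-associated miR-290 cluster, and next above miR-7a-5p (53727 CPM). In RS it was 3rd, below miR-881-3p (103849 CPM), of an X-linked testis cluster, and above miR-148a-3p (52903 CPM). In the haploid lines it was 20th (A129-2), 23rd (A129-6) and 24th (A129-17). Its neighbours there were miR-26a-5p and miR-183-5p in A129-2, miR-470-5p and miR-744-5p in A129-6, and miR-871-3p and miR-298-5p in A129-17.

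The mean of the 3 haploid lines was 5137 ± 649 CPM (SD of line means), 10.6-fold lower than the R1 mean. By line the level was 9.22-fold lower than R1 in A129-2, 11.2-fold in A129-6 and 11.5-fold in A129-17. With TMM scaling, which sets libraries against each other on the bulk of their features, the log2 difference of the haploid lines from R1 was -3.28 (SE 0.19). The haploid mean was 17.0-fold lower than the RS mean in CPM, and the TMM-scaled log2 difference was -2.44 (SE 0.40). Between R1 and RS the ratio of mean CPM was 0.621, and the TMM-scaled log2 difference -0.01 (SE 0.55). That last difference was not stable: it ran up to 0.93 when a library was left out in turn and was -0.69 with total counts as the scale.

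The miR-290 cluster bears on these levels, because it took 64.1% to 77.1% of the counts in haploid libraries, 49.1% to 50.2% in R1 and at most 0.678% in RS. Counted per 1000000 reads outside that cluster, miR-21a-5p was nearly level across the 7 haploid libraries, with values of 19308 and 18932 for A129-2. The line A129-6 had 19137, 16544 and 16267, and the line A129-17 had 19431 and 19387. R1 had 107744 and 107701, and RS had 126862, 48456 and 86831. The highest haploid library was 1.19 times the lowest on this scale, against 1.86 times relative to all counts. Here the haploid mean was 18615 ± 1134 (SD of 3 line means), 5.79-fold lower than R1 and 4.69-fold lower than RS. R1, with a mean of 107722, was then above the RS mean of 87383 and again within the range of RS libraries.

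**Figure D2:**
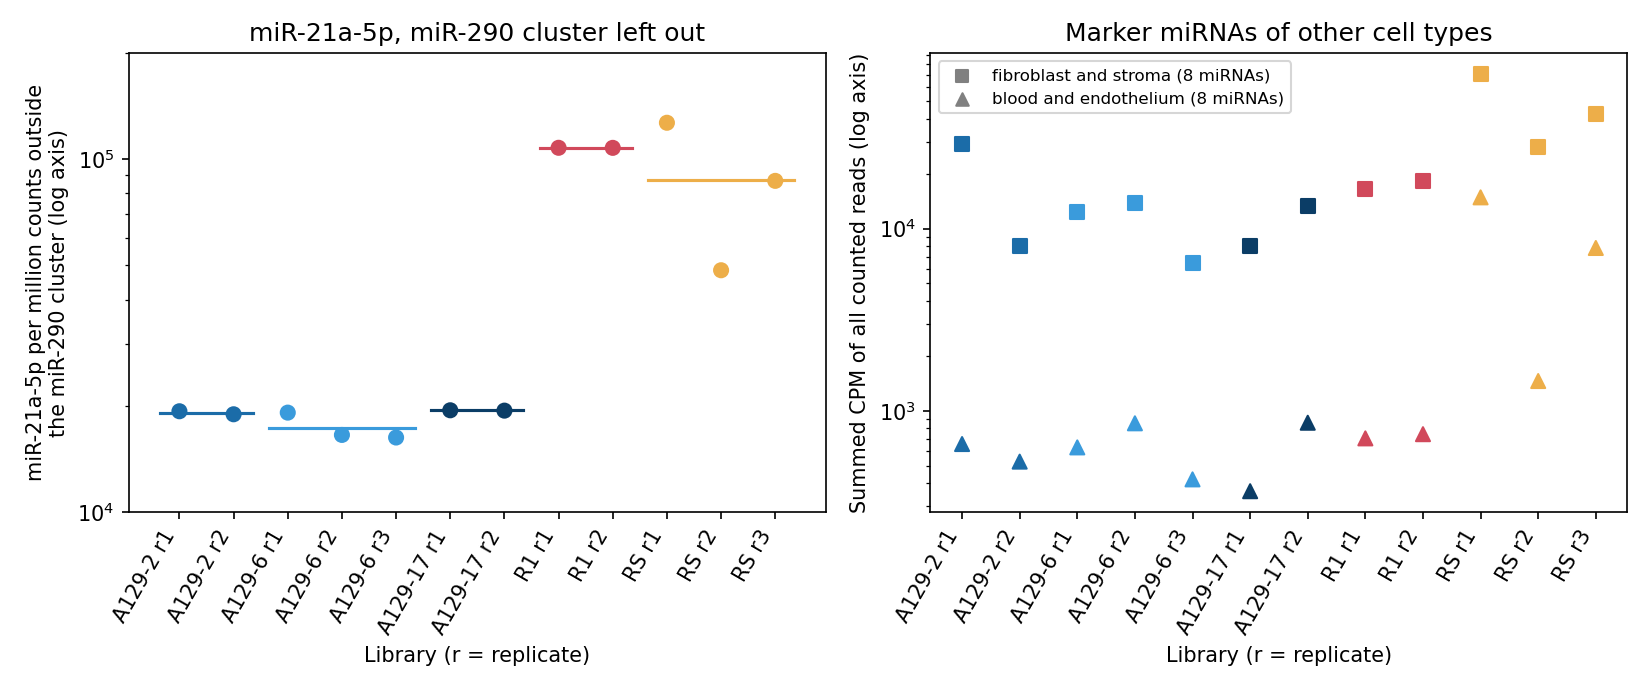
Left, miR-21a-5p per 1000000 counts outside the miR-290 cluster by library, on a log axis, with group means as lines. Right, summed CPM of 8 fibroblast and stroma miRNAs (squares) and 8 blood and endothelium miRNAs (triangles) in the same libraries, on a log axis. The haploid libraries lie between 16267 and 19431 on the left, and RS replicate 2 is the lowest RS library in both panels.

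Base composition moved with the difference between haploid lines and R1. Beside the log2 difference (haploid lines minus R1) of -3.28 for miR-21a-5p, the 141 other tested miRNAs within 5 percentage points of its G and C content had a median of -2.55. The median over all 757 tested miRNAs was 0.33. After a correction for G and C content in each library the log2 difference of miR-21a-5p was -1.41, still lower in the haploid lines. The part of base composition in the difference was not tested.

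miR-21a is also known from fibroblasts and blood cells, so markers of those cells were measured in the same libraries. The 8 fibroblast and stroma miRNAs summed to 6488 to 29096 CPM in haploid libraries, 16556 and 18322 CPM in R1, and 70763, 28093 and 42845 CPM in RS replicates 1, 2 and 3, with none at 0 in any library. Most of that was miR-143-3p, with 64215, 13535 and 36084 CPM in the RS libraries. The 8 blood and endothelium miRNAs summed to 362 to 859 CPM in haploid libraries, 705 and 744 CPM in R1, and 14849, 1456 and 7829 CPM in RS. Of these, miR-126a-3p, an endothelial miRNA, had 12207, 792 and 6401 CPM in RS, miR-451a of red cells 956, 432 and 468 CPM, and miR-223-3p of myeloid cells 65.7, 0 and 6.00 CPM. miR-150-5p of lymphocytes lay the other way, with 269 to 758 CPM in haploid libraries, 190 and 215 CPM in R1 and 94.4, 32.2 and 114 CPM in RS. miR-144-3p, also of red cells, had 0 counts in RS replicate 2 and in 6 of the 7 haploid libraries. Both Sertoli miRNAs (miR-202-5p and miR-202-3p) summed to 90.0 to 142 CPM in RS, at most 0.412 CPM in haploid libraries and at most 0.393 CPM in R1. RS replicate 1 was the highest and replicate 2 the lowest of the 3 spermatid libraries for miR-21a-5p, for the fibroblast sum and for the blood sum. Taken singly, 5 of the 8 fibroblast and 5 of the 8 blood miRNAs had the order of miR-21a-5p over the RS libraries. RS replicate 2 was instead the highest for miR-10b-5p (1329, 9322 and 2508 CPM) and miR-22-3p (2679, 4490 and 2754 CPM). Both sums in R1 fell within the haploid range, but for the fibroblast sum only through A129-2 replicate 1 (29096 CPM). The other haploid libraries had fibroblast sums of 6488 to 13849 CPM, below both R1 libraries. Single markers in R1 did not all fall within the haploid range. Over all 757 miRNAs tested, edgeR called 35.3% lower in the haploid lines than in R1 and 35.3% higher. The share of all miRNAs without overlap between haploid and R1 libraries was not counted. Every haploid library was below both R1 libraries in 3 of the 8 fibroblast and 4 of the 8 blood miRNAs. In 1 of the fibroblast and 2 of the blood miRNAs every haploid library was above both. Among those below were miR-142a-5p, with 3.61 to 8.09 CPM in haploid libraries and 110 and 107 CPM in R1, miR-126a-3p, with 33.8 to 75.2 CPM against 241 and 262 CPM, and miR-10b-5p, with 74.1 to 283 CPM against 1619 and 1413 CPM. Those above were miR-214-3p of the fibroblast list, and miR-451a and miR-150-5p of the blood list. In haploid libraries miR-214-3p had 204 to 1159 CPM, against 14.5 and 13.3 CPM in R1. For miR-451a the values were 11.3 to 134 CPM against 4.32 and 5.34 CPM. The part of other cell types in the levels of miR-21a-5p was not tested.

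Between the 3 haploid lines, levels of miR-21a-5p did not pass the test (edgeR's quasi-likelihood F-test on the 9 ESC libraries, adjusted p = 0.819 over 757 miRNAs). The test called 29 miRNAs, or 3.83% of those tested. A129-6 minus A129-2 was -0.04 on the log2 scale (SE 0.24), A129-17 minus A129-2 was 0.16 (SE 0.26) and A129-17 minus A129-6 was 0.21 (SE 0.24), with edgeR adjusted p of 0.959, 0.747 and 0.688. In A129-6 minus A129-2, 2.38% of miRNAs were called by edgeR, 1.85% higher and 0.528% lower, and in both pairs with A129-17 0%. That count of 0 stands beside 181 and 123 miRNAs at an unadjusted p under 0.05 and 72 and 29 called by DESeq2. A p that misses the threshold does not show that the lines have the same level, and the standard errors of 0.24 to 0.26 bound how small a difference could be seen. The signs of the pairs with A129-17 turned with total counts as the scale, at -0.32 and -0.04.

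miR-21a-3p was at the edge of detection in every group. Its counts were 5 and 1 in the A129-2 libraries, 10, 5 and 3 in those of A129-6 and 3 and 0 in those of A129-17. R1 had 25 and 26 counts, and RS had 1, 0 and 1. In CPM, A129-2 had 1.35 and 0.110, A129-6 had 1.39, 0.795 and 0.412, and A129-17 had 0.435 and 0. R1 had 3.28 and 2.83 CPM, against 4.10, 0 and 6.00 CPM in RS. Each haploid library lay below each R1 library, whereas RS replicates 1 and 3 lay above all other libraries and replicate 2 had no read. The count of 0 in RS replicate 2 allows a level of up to 19.3 CPM and that in A129-17 replicate 2 up to 0.535 CPM. The 3p arm passed the filter on low counts through R1, where its counts were highest. By mean CPM it ranked between 532nd and 965th over the 5 groups.

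Pooled over libraries, the 3p arm had 27 counts in the haploid lines (0.586 CPM) and 51 in R1 (3.03 CPM), a ratio of 0.193 (95% interval of the ratio 0.116 to 0.314). The TMM-scaled log2 difference was -2.47 (SE 0.82), and -3.91 without A129-17 replicate 1. These values are a description, as for the 5p arm, and the interval covers counting error only. The 177 other tested miRNAs within 5 percentage points of the G and C content of the 3p arm had a median log2 difference of 1.62, and after the G and C correction that of the 3p arm was -3.62. The ratio of the haploid lines to RS, where only 2 counts were found in 565641, was 0.166 (0.0416 to 1.44), and that of R1 to RS was 0.858 (0.226 to 7.28). With 2 reads in the spermatid libraries, these ratios are known only within such wide intervals.

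The F-test between the haploid lines did not pass for the 3p arm (edgeR adjusted p = 0.688). Pooled counts gave a ratio of 1.85 for A129-6 to A129-2 (interval 0.704 to 5.69), 0.513 for A129-17 to A129-2 (0.0830 to 2.40) and 0.277 for A129-17 to A129-6 (0.0523 to 0.949). A129-2 replicate 1 alone held 5 of the 6 counts of its line, and the first of these ratios was 7.89 without it and 0.643 without A129-2 replicate 2. Without A129-2 replicate 1 the second ratio was 2.19, and without A129-17 replicate 1 both ratios of A129-17 were 0. The ratio of A129-17 to A129-6 stayed below 1 whichever of their libraries was left out, and both ratios to A129-2 turned.

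The hairpin gave almost only its 5p arm in all groups. Of all reads of the hairpin, 1191363 were 5p and 80 were 3p, a ratio of 14892 to 1 over the 12 libraries. The 3p arm made up 195 and 22.7 per 1000000 miR-21a reads in A129-2 replicates 1 and 2. The A129-6 libraries had 249, 153 and 111 per 1000000, and the A129-17 libraries 96.9 and 0. R1 had 59.7 and 52.8 per 1000000, and RS had 32.3, 0 and 69.1. The haploid libraries lay on both sides of R1. Against RS, A129-2 replicate 1, all A129-6 libraries and A129-17 replicate 1 lay above every RS library. A129-2 replicate 2 lay within the RS range, and A129-17 replicate 2 was at 0, as was RS replicate 2. Neither comparison therefore fully separated the groups.

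**Figure D3:**
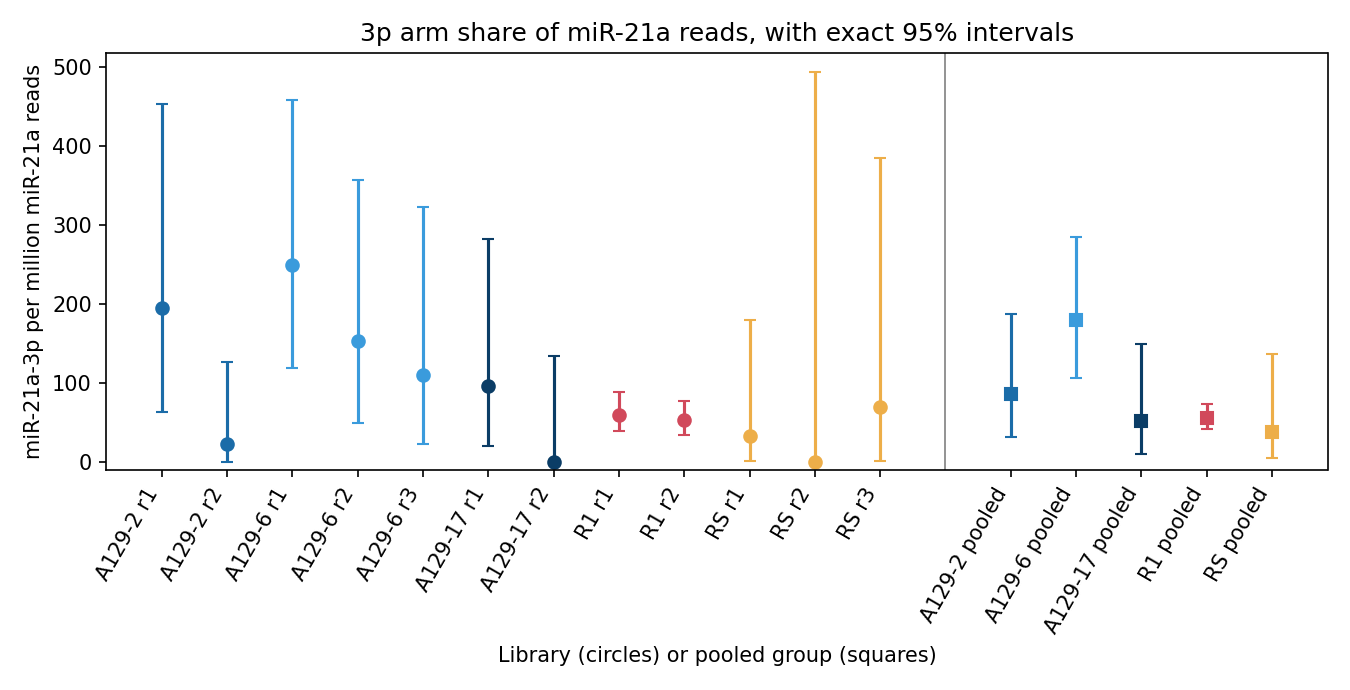
miR-21a-3p per 1000000 reads of either miR-21a arm in each library (circles) and in the pooled groups (squares), with exact 95% intervals. Only the R1 intervals are narrow (34.5 to 88.2 over both libraries), and the highest library is A129-6 replicate 1 with 249 per 1000000.

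Pooled by group, the 3p share was 86.0 per 1000000 in A129-2 (exact 95% interval 31.6 to 187), 180 in A129-6 (107 to 285), 51.3 in A129-17 (10.6 to 150), 56.0 in R1 (41.7 to 73.6) and 37.8 in RS (4.58 to 137). The interval of A129-6 lay above that of R1, and those of the other lines and of RS overlapped it. These intervals leave out the spread between libraries. All haploid libraries together gave 118 per 1000000 (78.0 to 172.2). In a fit of both arms of every hairpin, with a term for each library, the log2 ratio of 5p to 3p was lower in the haploid lines than in R1 by 0.79 (log2 difference -0.79, SE 0.69) and than in RS by 1.36 (log2 difference -1.36, SE 1.18). Both rest on few reads of the 3p arm, which in RS were 2. Without A129-17 replicate 1, the only library of its line with a 3p read, the first turned to 0.36 and the second was -0.21. The second reached -1.91 without RS replicate 3.

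Arm ratios did not pass the test where it could be made. Between the haploid lines the adjusted p was 0.702 (edgeR, paired counts of both arms over 367 hairpins). For R1 against RS the log2 difference of the ratio was -0.57 (SE 1.17, edgeR adjusted p = 1), and its sign turned to 0.28 with limma on the log2 ratios (adjusted p = 0.800). edgeR called 6.81% of hairpins in R1 against RS, 3.81% with a higher and 3.00% with a lower ratio in R1. That was 25 of 367 hairpins, against 144 called by limma, and edgeR called 13 without R1 replicate 1 and 15 without R1 replicate 2. Between the lines it called 0%, with 42 hairpins at an unadjusted p under 0.05, and limma called 0 with 43. With 2 reads of the 3p arm in all of RS, the interval of its pooled share runs from 4.58 to 137 per 1000000, which spans the share in R1 and also that in the haploid lines together.

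Pooled over the 12 libraries, few hairpins were as one-sided as miR-21a, whose 5p reads came mostly from R1 (910440 of 1191363). Among 317 hairpins with both arms in the table and at least 100 counts over the 12 libraries, the less abundant arm took 0.00671% of the reads for miR-21a, against 3.93% for the median hairpin. In 105 of them, 33.1%, the minor arm took less than 1%. A single hairpin, that of miR-470 of the X-linked testis cluster, had a lower share (0.00419%, from 7 reads of its 3p arm). By group, the number of hairpins more one-sided than miR-21a was 31 of 258 for A129-2, 30 of 267 for A129-6, 46 of 241 for A129-17, 7 of 259 for R1 and 17 of 118 for RS. A hairpin with at least 100 counts and no read of its minor arm counts as more one-sided than miR-21a, so the rank is limited by depth.

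**Figure D4:**
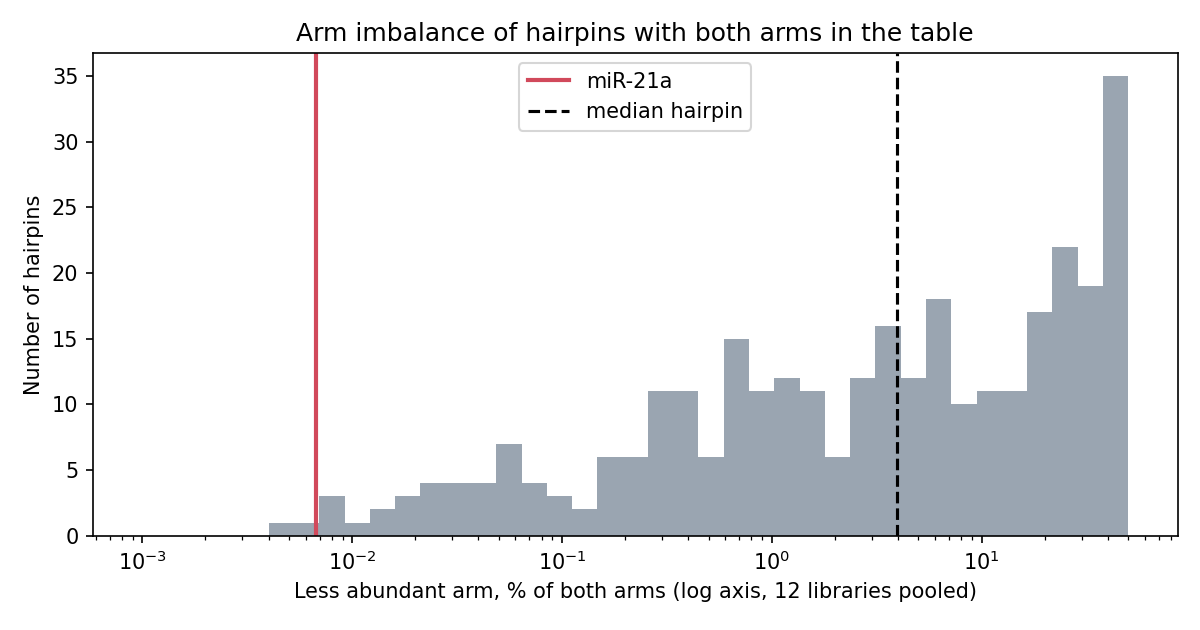
Number of hairpins by the share of reads on their less abundant arm (%, log axis, 12 libraries pooled). The red line marks miR-21a at 0.00671% and the dashed line the median hairpin at 3.93%.

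The most abundant other hairpins, each group weighted equally, show how far arm use can move in these libraries. miR-293, of the miR-290 cluster, had 94.4% of its reads on the 3p arm in A129-2, 94.4% in A129-6 and 93.5% in A129-17, against 49.8% in R1 and 46.5% in RS. The 3p share of miR-292a was 8.69%, 8.16% and 7.12% in those lines, 19.7% in R1 and 22.8% in RS. miR-292b stayed between 93.3% and 98.3%, miR-34c, a germ cell miRNA, between 0.464% and 2.44%, and miR-148a between 97.3% and 99.9%. In RS the shares of the miR-290 cluster hairpins rest on few reads, with 231 5p and 201 3p reads for miR-293. The counts were 332 and 98 for miR-292a, and 9 and 125 for miR-292b. Most of those 3p reads of miR-293 and miR-292a came from RS replicate 2. In RS replicates 1, 2 and 3, miR-293-3p was at 4.10, 1243 and 42.0 CPM, and miR-292a-3p at 8.21, 567 and 48.0 CPM. The 3p share of miR-21a was at most 0.0180% in any group.

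The miRNAs with the profile most like that of miR-21a-5p were found by Pearson's correlation of log2 TMM-scaled CPM over the 12 libraries, among those with at least 10 CPM in a group. They were miR-142a-5p (r = 0.965), miR-340-5p (0.948), miR-200a-3p (0.945), miR-126a-5p (0.941) and miR-101a-3p (0.941). These values describe the 12 libraries, which fall into 5 groups and are not independent points, and no p is given. miR-142a-5p, of blood cells, and miR-126a-5p, of endothelium, are on the list of blood and endothelium markers used above. In TMM-scaled CPM, miR-142a-5p averaged 7.16 in A129-2, 7.77 in A129-6, 8.93 in A129-17, 82.6 in R1 and 266 in RS. miR-340-5p averaged 173, 120, 113, 908 and 878 in the same order. miR-200a-3p, which restrains the epithelial to mesenchymal transition, was at 110, 60.7, 82.6, 612 and 412, and miR-101a-3p, a repressor of Ezh2, at 234, 267, 213, 5529 and 1710.

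The sequences of those found in RefSeq are shown because they are all rich in A and U, with the seed in capitals.
miR-142a-5p: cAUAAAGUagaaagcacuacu
miR-340-5p: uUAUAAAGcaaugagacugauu
miR-200a-3p: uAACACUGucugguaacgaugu
miR-101a-3p: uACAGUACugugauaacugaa
None has the seed of miR-21a-5p. Their G and C content was 33.3%, 27.3%, 40.9% and 33.3%, beside 36.4% for miR-21a-5p and a median of 50% over the 651 tested miRNAs with a sequence. The part of base composition in this likeness was not tested.

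**Figure D5:**
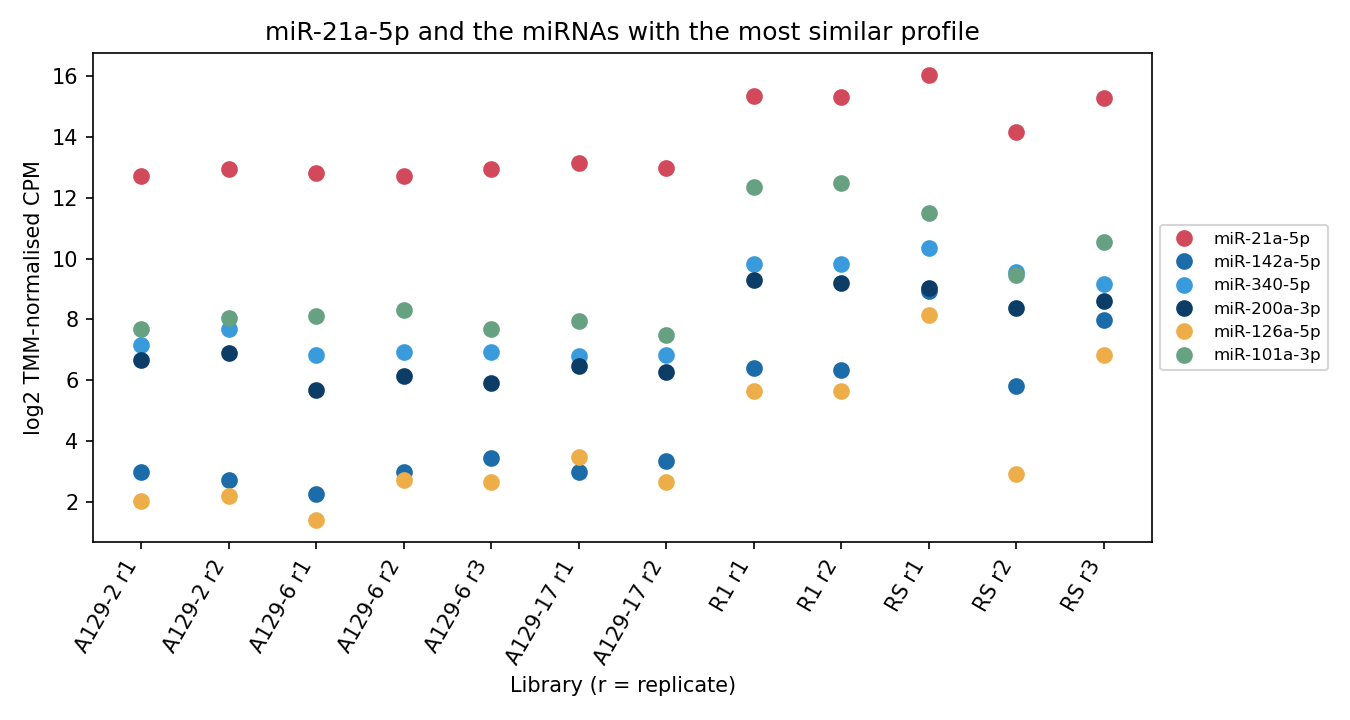
Dots show log2 TMM-scaled CPM of miR-21a-5p and of the 5 miRNAs with the highest correlation to it, by library. Each is lower in all 7 haploid libraries than in both R1 libraries, a pattern that choosing the 5 by correlation over these libraries favours. RS replicate 2 is the lowest RS library for miR-21a-5p, miR-142a-5p, miR-200a-3p, miR-126a-5p and miR-101a-3p. For miR-340-5p the lowest is RS replicate 3.

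For miR-21a-3p the highest correlations were lower, from 0.590 (miR-27a-3p) to 0.686 (miR-200c-3p), with miR-27b-3p (0.660), miR-152-5p (0.607) and miR-378c (0.600) between them. The arms themselves had r = 0.434 over the 12 libraries, with the 3p arm at 0 to 26 counts.

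Other miRNAs that respond to growth or inflammatory signals moved in both directions between the haploid lines and R1, as did the tested miRNAs in general. Of 10 listed, all were tested, and in the haploid lines against R1 4 were higher, 2 lower and 4 not called by edgeR at an adjusted p under 0.05. Over all 757 miRNAs 35.3% were higher and 35.3% lower. The median log2 difference of the list was 0.22, against 0.33 over all miRNAs. Without R1 replicate 2 only 3 members were called. In the haploid lines against RS 2 were higher and 3 lower (44.5% and 20.8% of all 806 miRNAs), with a median log2 difference of -0.24 against 2.79 over all, and in R1 against RS 0 were higher and 3 lower (33.6% and 19.4%), with a median of -0.67 against 2.04. Without A129-2 replicate 1, 3 members were called in the haploid lines against RS. Of all miRNAs, 70.5% were called in haploid lines against R1, 65.4% in haploid lines against RS and 53.0% in R1 against RS.

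miR-146b-5p, which dampens Toll-like receptor signalling, was lower in the haploid lines than in R1 and RS, as was miR-21a-5p, but far less abundant. Its means were 347, 312 and 285 CPM in A129-2, A129-6 and A129-17, 1774 in R1 and 2108 in RS. It fell in the haploid lines against R1 (log2 -2.33, SE 0.24, edgeR adjusted p = 6.12e-07). miR-146a-5p, which shares that role, rose instead (log2 1.25, SE 0.35), with means of 29.1, 29.2 and 20.6 CPM in the haploid lines, 12.1 in R1 and 293.5 in RS. miR-221-3p and miR-222-3p, which repress the cell cycle inhibitor p27, rose by 1.04 (SE 0.25) and 1.37 (SE 0.34), at edgeR adjusted p = 0.00202 and 0.00234. miR-181b-5p rose by 3.30 (SE 0.41), with 53.2, 42.0 and 40.0 CPM in the haploid lines, 4.92 in R1 and 184 in RS. miR-23a-3p fell (log2 -0.77, SE 0.26, edgeR adjusted p = 0.0161), a call lost after correction for G and C content (adjusted p = 0.204), with total counts as the scale (0.0545) and without R1 replicate 1 (0.128) or 2 (0.0897). Between the haploid lines, where it averaged 243, 124 and 60.6 CPM in A129-2, A129-6 and A129-17, miR-23a-3p was the only listed miRNA called (edgeR adjusted p = 0.0458). That call was lost without any 1 of A129-2 replicates 1 and 2, A129-6 replicates 1 and 2, A129-17 replicate 1 and R1 replicate 2, and with total counts. The calls of miR-221-3p were lost with total counts (edgeR adjusted p = 0.0505) or without R1 replicate 1 (0.0537) or 2 (0.0618), and that of miR-146a-5p without R1 replicate 2 (0.117). miR-155-5p, a miRNA of activated immune cells, was at 10.6, 9.05 and 7.94 CPM in the haploid lines, 11.7 in R1 and 73.7 in RS, and was not called against R1 (log2 -0.25, SE 0.46). miR-31-5p (log2 -0.26), miR-132-3p (0.70) and miR-212-3p (-0.61) were not called either.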

How the data were processed

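The authors deposited raw counts of reads, not normalised, for 1366 features with a mouse miRBase name and 183 predicted ones. Per the labels' protocols, small RNA was ligated to 3' and then 5' adapters, amplified by PCR, gel-selected and read from a single end (NovaSeq). The submitters' processing notes name Bowtie 0.12.9 and DESeq2. Not given in the sources used here were the genome build and the miRBase release.

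The analysis of the counts used edgeR 4.0.16, limma 3.58.1 and DESeq2 1.42.0 under R 4.3.3. Features passed filterByExpr (minimum count 10, minimum total 15), were scaled by TMM and fitted by group with edgeR's quasi-likelihood test, with Benjamini-Hochberg adjustment over all features tested and a threshold of 0.05. Comparisons among ESC used 9 libraries (757 miRNAs), those with RS all 12 (806 miRNAs). Haploid lines weighed equally. Arm ratios were fitted on paired counts of both arms (at least 10 reads in 2 libraries) with a term per library. CPM refer to all counts unless called TMM-scaled. Every test was two-sided or an F-test, and the scripts were tested on simulated data. The members and lists were chosen with earlier results of these data known. Named miRNAs were the members, the listed miRNAs, the 5 most correlated ones, rank neighbours and the most abundant hairpins. For RS, where few 3p reads were found, ratios of pooled counts with exact intervals replaced fitted folds of the 3p level. Arm ratios against RS were fitted and rest on the same few reads.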

Additional observations from a re-analysis of the deposited data

How the results depend on the processing

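Depth limits the 3p arm, with 0 to 26 counts a library, and spermatid libraries in general. Against R1, miR-21a-5p was lower in the haploid lines under all alternatives run, with log2 differences of -3.52 (RLE scaling and DESeq2), -3.41 (total counts), -3.39 (scaling without the miR-290 cluster), -1.41 (G and C correction) and -2.43 (all 12 libraries, an alternative chosen after seeing the data). Leaving out a library gave -3.35 to -3.21. Scaling shifted the median of all miRNAs in that comparison by -0.25 (RLE), -0.13 (total counts), -0.11 (miR-290 left out), -0.20 (G and C correction) and 0.85 (all 12 libraries). Against RS it was -4.09 with total counts. R1 minus RS was -0.69 with total counts, 0.95 with miR-290 left out, 1.01 without a filter, -1.36 after G and C correction and -0.010 to 0.93 when a library was left out; the cause was not tested. Total counts turned A129-17 minus A129-2 to -0.32 and A129-17 minus A129-6 to -0.038, and leaving out a library gave -0.11 to 0.037 for A129-6 minus A129-2 (0.03 without A129-2 replicate 2 and 0.037 without A129-6 replicate 2). No call on miR-21a between lines changed under any alternative run; for the 3p arm DESeq2 gave no adjusted p.

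For the 3p arm, leaving out a library gave log2 differences from R1 of -3.91 to -2.22, and ratios of pooled counts (an alternative chosen after seeing the data) of 0.643 to 7.89 (A129-6 to A129-2), 0 to 2.19 (A129-17 to A129-2) and 0 to 0.503 (A129-17 to A129-6). Differences of the log2 arm ratio lay between -1.15 and 0.36 (haploid minus R1) and between -1.91 and -0.21 (haploid minus RS), the highest of each without A129-17 replicate 1, and limma turned R1 minus RS to 0.28.

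The 29 miRNAs called between haploid lines became 0 (total counts), 82 (no filter), 90 (DESeq2), 72 (replicate block), 2 (all 12 libraries) and 0 to 80 when a library was left out: 9 and 6 without A129-2 replicates 1 and 2, 0, 0 and 80 without A129-6 replicates 1, 2 and 3, and 44 without A129-17 replicate 2. Called hairpins were 235 (haploid against RS) and 144 (R1 against RS) with limma, against 64 and 25. With at least 50 counts in every library they were 42 (haploid against R1, otherwise 133) and 35 (haploid against RS). The replicate block gave 10 between lines, against 0. Leaving out a library gave 59 to 139 (haploid against R1; 59 and 72 without R1 replicates 1 and 2) and 13 to 27 (R1 against RS; 13 and 15 without them). Signal-responsive miRNAs called were 5 in R1 against RS with total counts, 9 there and 9 in haploid against RS after G and C correction, and 0 between lines with total counts or all 12 libraries. Leaving out a library gave 3 to 6 (each haploid comparison) and 0 to 1 (between lines). miR-155-5p turned to 1.79 after G and C correction (adjusted p = 0.00374), to 0.62 with all 12 libraries and to 0.12 without R1 replicate 1 (-0.58 without R1 replicate 2). With all 12 libraries miR-31-5p, miR-212-3p and miR-23a-3p turned to 0.59, 0.22 and 0.083.

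Same-numbered libraries of different groups showed no shared deviation (correlations of -0.11 to 0.09 over 21 pairs). That check cannot exclude pairing, because in groups of only a pair of libraries the deviations mirror each other. With the replicate block the log2 difference of miR-21a-5p from R1 was -3.30.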
